A study of Mus musculus with 6 samples.

Results

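The guanylate-binding protein (Gbp) genes were examined member by member in myeloid cells of the mouse pancreas after treatment with whole glucan particles (WGP). The count table lists 21780 genes, and 10 of them carry the symbols Gbp2, Gbp2b and Gbp3 to Gbp10 in the GENCODE vM21 annotation. The family was selected on measured values of the same WGP against PBS contrast. The levels and fold changes of its members are therefore given as a description, with no test. All 6 libraries came from wild-type C57BL/6J mice of both sexes, aged 6 to 8 weeks, and the sex behind each library is not given in the sources used here. The PBS group received sterile PBS intraperitoneally, and the WGP group received a single 1 mg dose of WGP, hollow β-glucan particles made from Saccharomyces cerevisiae, in the same vehicle. On day 7 the pancreas was digested, and CD45+CD11b+ cells, a gate that holds monocytes, macrophages, neutrophils and other CD11b+ leukocytes, were sorted for poly-A RNA sequencing. Each group had 3 libraries, which the study describes as independent animals of a single experiment.

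Gbp proteins are large GTPases of the dynamin superfamily that cells make in response to interferons, above all interferon-γ. They assemble on the vacuoles of intracellular parasites and bacteria or on the bacteria themselves, break these membranes open, and expose their contents to inflammasomes and to the autophagy machinery. In macrophages they work beside a second interferon-induced family, the immunity-related GTPases.

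Library totals lay between 35334645 and 40580936 counts for PBS and between 38240913 and 43341834 counts for WGP. The sorting genes were present throughout, with Ptprc (CD45) between 949.2 and 1747 and Itgam (CD11b) between 188.8 and 417.5 CPM (counts scaled to library size by TMM, a trimmed-mean scaling). The macrophage marker Adgre1 lay between 423.0 and 793.0 CPM, and of the 5 macrophage markers C1qa alone passed the test, as lower in WGP (means of 2859 CPM in PBS and 1128 CPM in WGP). Markers of other cell types differed between groups. Of 4 monocyte markers 3 passed the test as higher in WGP, and the sum of the 4 lay between 591.4 and 881.7 CPM in PBS and between 2618 and 3115 CPM in WGP. All 5 B cell markers, Ms4a1 among them, and all 5 acinar markers passed as lower in WGP, with sums of 361.1 to 2414 and 804.0 to 3073 CPM in PBS and of 86.79 to 168.7 and 176.5 to 304.3 CPM in WGP. Of 6 NK cell markers Gzma fell by 1.81 on the log2 scale (adjusted p = 0.0187), a call lost in 4 of 16 alternatives, and by 1.19 without PBS replicate 1, while Ncr1 did not pass (adjusted p = 0.176). The dendritic cell marker Cd209a passed as lower (log2 fold change -1.35), and the T cell marker Cd8a, at 0 in all PBS libraries, and the endothelial marker Kdr (log2 fold change 2.52, or 3.20 without PBS replicate 2) as higher. C1qa, Cd209a, Cd8a and Kdr lost their calls in a fit with a covariate for Y-linked counts. That covariate marked PBS replicates 2 and 3, so its group term compared WGP with PBS replicate 1 alone. The call of Cd8a was lost in 7 of 16 alternatives in all. None of 5 neutrophil markers was called by edgeR, by DESeq2 or by limma-voom (2 had an unadjusted p under 0.05, Csf3r as higher and Retnlg as lower). S100a8, S100a9, Retnlg and Mmp8, the NK marker Prf1 and the endothelial marker Pecam1 were each at their highest in PBS replicate 1. For S100a8 that was 1281 CPM against 583.0 and 296.5 CPM in PBS replicates 2 and 3. S100a9 and Pecam1 were called lower without PBS replicate 3. Of the T cell markers DESeq2 called Cd3e higher, the fit without PBS replicate 3 called Cd3d higher, and the replicate block called Cd4 lower. Counts from Y-linked genes were 9401 and 10514 in PBS replicates 2 and 3, and between 179 and 707 in the other libraries. High counts thus occurred in PBS alone, so WGP against PBS may in part compare sexes, and without the sex of each library these cannot be fully told apart. In the fit with the Y-linked covariate the 9 Gbp members with counts in PBS kept their direction, with log2 fold changes from 2.145 to 4.822. With PBS replicate 1 as its single control, that fit cannot separate sex from other traits of this library. PBS replicate 1 and WGP replicate 2 stood apart from their groups. Comparing the counts of library pairs, the chi-square per gene of PBS replicate 1 was 155.4 and 247.9 against the other PBS libraries, which gave 77.63 between them, and that of WGP replicate 2 was 133.3 and 117.4 against 61.51. PBS replicate 1 had the highest level of all 5 B cell markers, with Ms4a1 at 668.3 CPM against 162.5 and 97.45 CPM, and of S100a8, and it held the low Y-linked count of its group. Without it all 5 B cell markers were still called lower, with Ms4a1 at a log2 fold change of -2.25 in place of -3.50, and the log2 fold changes of the 9 Gbp members with PBS counts ran from 2.26 to 5.75. In WGP replicate 2, all 4 fibroblast markers were at their highest, and their sum was 1016 CPM against 21.92 CPM in the lowest WGP library and 51.8 to 96.25 CPM in PBS. The defining marker Pdgfra was at 0 in WGP replicates 1 and 3. Without WGP replicate 2 the fibroblast markers Pdgfra and Dcn were called lower in WGP. Col1a1 was called higher without WGP replicate 1 and without WGP replicate 3. Values without WGP replicate 2 are given below, and the part that these markers play in the Gbp values was not tested.

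The members lie in a pair of clusters (GRCm38.p6). On chromosome 3, Gbp5, Gbp7, Gbp3, Gbp2b and Gbp2 follow each other on the plus strand within 144.0 kb (chr3:142493978-142638008). On chromosome 5, Gbp8, Gbp9, Gbp4, Gbp10 and Gbp6 lie on the minus strand within 279.5 kb (chr5:105014150-105293698). Another listed gene, Gm43302, lies inside the chromosome 5 cluster. The pseudogenes Gbp2-ps and Gbp11 were not analysed here.

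The upstream sequences are shown because interferon-inducible genes such as the Gbp genes are classically controlled through the gamma-activated site (GAS) and the interferon-stimulated response element (ISRE). Of the 10 members 5 had an entry in the RefSeq promoter table of this build, namely all those on chromosome 3. Gbp4, Gbp6, Gbp8, Gbp9 and Gbp10 were not matched. The 250 bases before the start annotated in RefSeq are printed 5′ to 3′ on the plus strand for Gbp5 (chr3:142496684-142496933), Gbp7 (chr3:142530086-142530335), Gbp3 (chr3:142559794-142560043), Gbp2b (chr3:142594597-142594846) and Gbp2 (chr3:142620413-142620662). These starts differ in part from those of GENCODE vM21. There Gbp5 starts at 142493978, so its window lies inside the gene. The windows of Gbp3 and Gbp2 end past their GENCODE starts of 142560026 and 142620602. Capitals mark the letters TTCNNNGAA (GAS) and GAAANNGAAA or its reverse complement TTTCNNTTTC (ISRE core), searched on both strands.
Gbp5: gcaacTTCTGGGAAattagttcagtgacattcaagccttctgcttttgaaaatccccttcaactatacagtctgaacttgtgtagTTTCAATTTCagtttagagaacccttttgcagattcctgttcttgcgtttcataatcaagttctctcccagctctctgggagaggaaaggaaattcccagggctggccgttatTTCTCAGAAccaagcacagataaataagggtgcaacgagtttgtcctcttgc
Gbp7: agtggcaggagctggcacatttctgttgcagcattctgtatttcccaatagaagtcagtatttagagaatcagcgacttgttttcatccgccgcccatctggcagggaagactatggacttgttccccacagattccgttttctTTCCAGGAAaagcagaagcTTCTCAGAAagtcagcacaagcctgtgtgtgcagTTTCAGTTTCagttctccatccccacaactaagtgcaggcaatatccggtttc
Gbp3: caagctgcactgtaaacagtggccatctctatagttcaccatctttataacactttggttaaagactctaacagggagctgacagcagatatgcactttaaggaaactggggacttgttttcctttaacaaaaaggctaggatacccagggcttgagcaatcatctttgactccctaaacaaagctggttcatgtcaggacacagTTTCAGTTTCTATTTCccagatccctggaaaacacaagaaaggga
Gbp2b: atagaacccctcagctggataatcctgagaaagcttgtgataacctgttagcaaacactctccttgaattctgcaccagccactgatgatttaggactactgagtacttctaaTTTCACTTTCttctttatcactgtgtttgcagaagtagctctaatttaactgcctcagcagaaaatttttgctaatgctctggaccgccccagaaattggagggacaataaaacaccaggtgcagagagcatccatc
Gbp2: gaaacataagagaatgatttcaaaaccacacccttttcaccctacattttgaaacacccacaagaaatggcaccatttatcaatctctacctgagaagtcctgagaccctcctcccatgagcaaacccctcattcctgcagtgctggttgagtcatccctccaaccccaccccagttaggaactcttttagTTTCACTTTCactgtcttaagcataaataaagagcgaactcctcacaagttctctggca
Gbp5 and Gbp7 each held 2 GAS matches and 1 ISRE core match, with the GAS letters TTCTCAGAA at positions -52 to -44 and -87 to -79 from their starts. Gbp3 held 2 ISRE core matches that overlap each other, at -45 to -36 and -39 to -30. Gbp2b and Gbp2 held 1 ISRE core match each, with the same letters TTTCACTTTC at -137 to -128 and at -59 to -50. No GAS match overlapped an ISRE core match. A second annotated start of Gbp3, further downstream, had neither in its window. Thus 5 of 6 Gbp promoter windows held the ISRE core and 2 of 6 held the GAS letters. Among all 32851 promoters of the same length the shares were 2.977% for the ISRE core, 7.02% for GAS and 0.332% for both. A match is a string of letters, and binding was not measured.

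All 10 members were higher in every WGP library than in any PBS library. All 10 also met the rule used for calling genes, an adjusted p no higher than 0.05 in edgeR's quasi-likelihood test together with a log2 fold change of 1 or more in size. Of the 14429 genes tested 9.49% met this rule in either direction, 4.53% as higher and 4.96% as lower in WGP, and 16.0% had all WGP libraries above all PBS libraries. Since the rule that chose the family used this contrast, nothing is read from these counts. The log2 fold changes of the 9 members with counts in PBS ran from 2.22 to 5.37, against a median of -0.053 over all genes tested. In RNA from bulk sorted cells, more cells of a type that expresses a gene and more RNA per cell cannot be told apart.

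**Figure D1:**
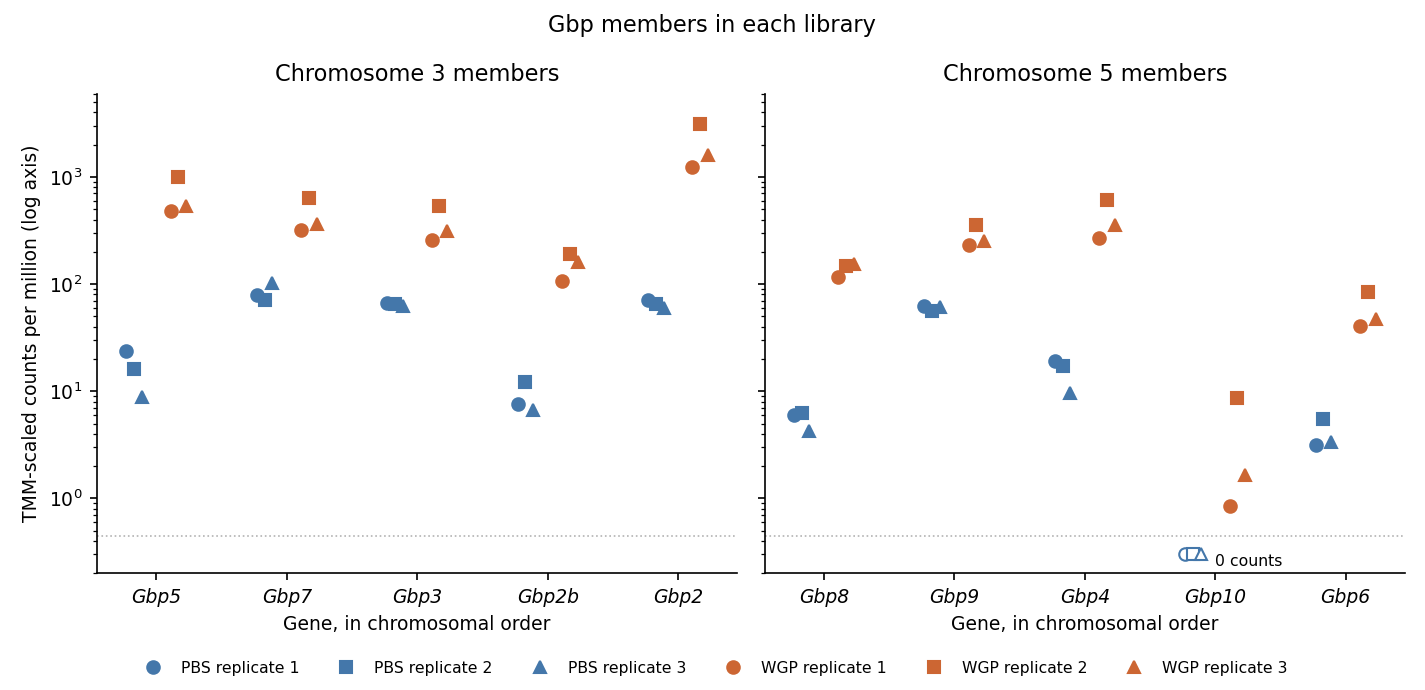
TMM-scaled CPM of each Gbp member (log axis) in the 3 PBS libraries (blue) and the 3 WGP libraries (orange), with the symbol shape giving the replicate and open symbols standing for 0 counts. The groups do not overlap for any member, and WGP replicate 2 (orange square) is the highest library for 9 of 10 members.

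Gbp2, whose protein coats parasite vacuoles and helps to open cytosolic bacteria to the AIM2 inflammasome, had the highest level of the family in WGP. In PBS it was highest per kilobase of exon, as given below, but in CPM Gbp7 lay above it in all 3 libraries. Gbp2 stood at 70.86, 64.56 and 59.72 CPM in PBS replicates 1 to 3 and at 1229, 3137 and 1598 CPM in WGP replicates 1 to 3. The PBS libraries were close together, and the lowest WGP library was 17.3 times the highest PBS library. The means differed 30.6-fold, and the log2 fold change was 4.93 (SE 0.35, n = 3 per group). It was 4.44 without WGP replicate 2.

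Gbp5, known for promoting the assembly of the NLRP3 inflammasome, had the largest fitted log2 fold change among the 9 members with PBS counts, at 5.37 (SE 0.42). Its levels were 23.75, 16.04 and 8.87 CPM in PBS and 480.3, 1003 and 533.4 CPM in WGP. PBS replicate 1 was the highest and PBS replicate 3 the lowest control, and even so the groups were far apart, with means differing 41.4-fold. The log2 fold change was 4.97 without WGP replicate 2.

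Gbp2b, the gene formerly called Gbp1 in the mouse, was a low member in PBS, at 7.54, 12.2 and 6.67 CPM. It reached 106.0, 189.1 and 160.9 CPM in WGP, a log2 fold change of 4.11 (SE 0.30). WGP replicate 2 stood less far above the others here than for Gbp2, at 1.42 times the mean of WGP replicates 1 and 3 against 2.22 times.

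Gbp3 and Gbp7 lie between Gbp5 and Gbp2b and had much smaller fold changes from a higher start. For Gbp7, which has been linked to the delivery of autophagy and oxidase components to bacterial vacuoles, the levels were 78.38, 71.05 and 102.5 CPM in PBS and 321.0, 629.8 and 362.0 CPM in WGP. For Gbp3 they were 67.04, 64.74 and 61.77 CPM in PBS and 260.5, 538.1 and 313.4 CPM in WGP. The lowest WGP library was 3.13 times the highest PBS library for Gbp7 and 3.89 times for Gbp3. Their log2 fold changes were 2.38 (SE 0.27) and 2.52 (SE 0.25). Without WGP replicate 2 both were smaller, at 2.02 and 2.15.

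On chromosome 5, Gbp4 and Gbp8 had the largest fold changes of the members with PBS counts. Gbp4 stood at 18.96, 17.07 and 9.70 CPM in PBS and at 271.0, 608.8 and 354.1 CPM in WGP, with a log2 fold change of 4.75 (SE 0.36). Gbp8 stood at 6.06, 6.29 and 4.23 CPM in PBS and at 117.5, 146.0 and 152.3 CPM in WGP, with a log2 fold change of 4.65 (SE 0.22). Gbp8 was the member with the tightest WGP libraries, with a coefficient of variation of 13.4% against 24.2% to 50.9% for the other members with PBS counts. It was also the single member for which WGP replicate 3, and not WGP replicate 2, was highest. Its log2 fold change hardly moved without WGP replicate 2, at 4.61, whereas that of Gbp4 went to 4.36.

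Gbp9 was to its cluster what Gbp3 and Gbp7 were to theirs, with a high level in PBS and the smallest log2 fold change of the 9, at 2.22 (SE 0.19). Its levels were 62.98, 55.52 and 60.57 CPM in PBS and 230.0, 355.5 and 250.2 CPM in WGP. Gbp6, one of the members reported to protect macrophages from mycobacteria and Listeria, was low in both groups, at 3.15, 5.49 and 3.37 CPM in PBS and 40.98, 84.62 and 46.94 CPM in WGP. Its log2 fold change was 3.84 (SE 0.36). The groups of both genes were separated, by a factor of 3.65 for Gbp9 and 7.46 for Gbp6 between the lowest WGP and the highest PBS library.

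Gbp10 was the single member with no count in PBS. It had 31, 356 and 67 counts in WGP replicates 1 to 3, or 0.841, 8.59 and 1.64 CPM, and most of its reads came from WGP replicate 2. Against a floor of 3 counts over the PBS group, which equals 0.0254 CPM, its mean in WGP was at least 145.5-fold higher, and at least 48.9-fold higher without WGP replicate 2. Such floors cover counting error alone. In these libraries the counts of little-expressed genes pile up around one value, centred between 18.5 and 41.5 counts depending on the library, with fewer genes at 1 to 9 counts than in the 10-count window at the peak. The 31, 356 and 67 counts of Gbp10 equal 1.68, 10.95 and 2.27 times that value in their own libraries. With a floor of 3 times the highest such value among the PBS libraries, 124.5 counts, the bound was at least 3.50-fold, and at least 1.18-fold without WGP replicate 2. This second floor was chosen after the data were seen. The member also lost the call without WGP replicate 2 and with the replicate block, and the other 9 kept it. Gbp10 lost the call with the covariate for Y-linked counts as well.

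Gbp10 and Gbp6 are in addition the members whose reads are hardest to assign. Of all 75-base windows in the exons of Gbp10 22.2% matched no other gene exactly, and for Gbp6 the share was 32.7%. The 2 genes have 2491 windows in common, and Gm43302, a protein-coding gene on the same strand that spans both, overlaps 1792 exonic bases of Gbp10 and 1726 of Gbp6. Gm43302 was listed at 0 counts in all 6 libraries. For the other 8 members 88.7% to 99.4% of the windows matched no other gene. Gbp7, the lowest of these, shares 563 windows with the pseudogene Gm43802, and Gbp8, Gbp9 and Gbp4 share a first exon of about 60 bases. How reads matching several genes were treated is not given in the sources used here, so the levels of Gbp10 and Gbp6 are uncertain.

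**Figure D2:**
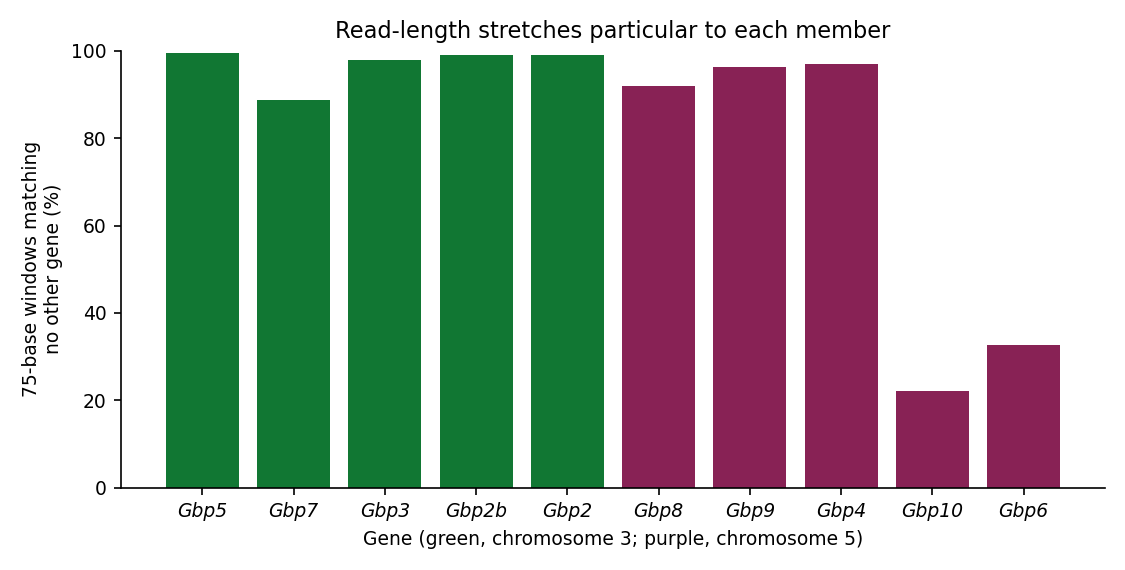
Percentage of the 75-base windows of each member's exons whose sequence occurs in the exons of no other gene, with chromosome 3 members in green and chromosome 5 members in purple. Gbp10 (22.2%) and Gbp6 (32.7%) fall far below the other 8 members (88.7% to 99.4%).

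The plot of fold change against PBS level shows the 9 members in 3 loose sets. Gbp3, Gbp7 and Gbp9 started between 59.69 and 83.98 CPM and had log2 fold changes of 2.22 to 2.52. Gbp2b, Gbp4, Gbp5, Gbp6 and Gbp8 started between 4.0 and 16.22 CPM and had log2 fold changes of 3.84 to 5.37. Gbp2 shared the high start of the first set, at 65.05 CPM, and the large fold change of the second. These sets were drawn after the values were seen, and both clusters contribute to the first 2 sets. Among the 11753 tested genes with a mean of at least 1 CPM in PBS, the fold change of Gbp5 ranked 6, that of Gbp2 9 and that of Gbp9 177. The family was selected on this contrast, so these ranks are a description.

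**Figure D3:**
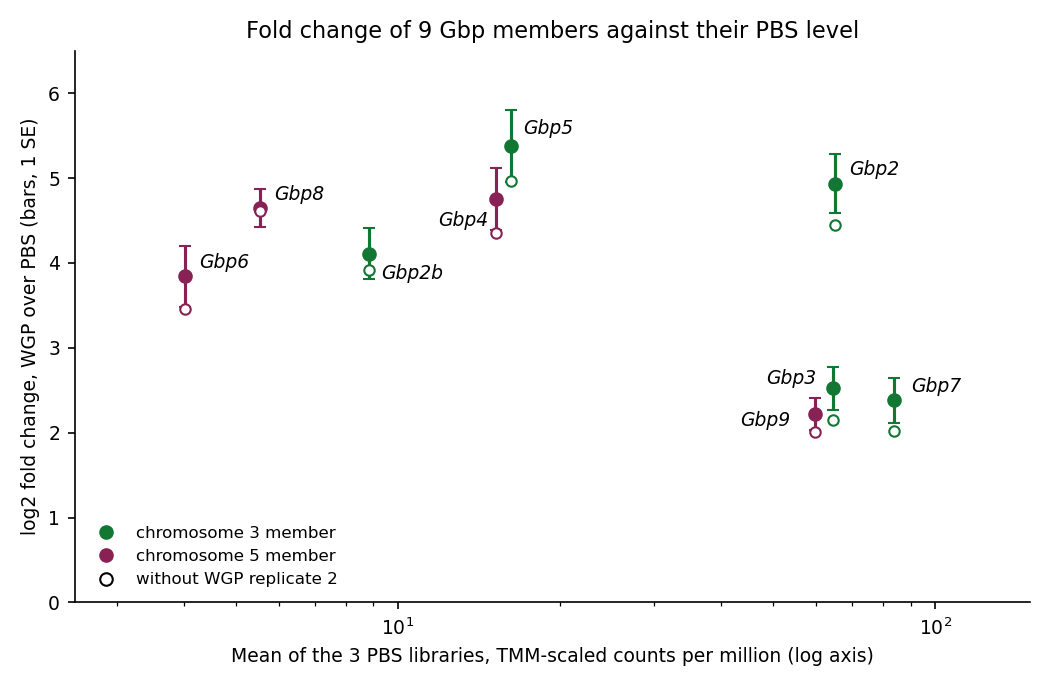
Fitted log2 fold change of 9 Gbp members (WGP over PBS, bars 1 SE) against their mean level in the 3 PBS libraries (log axis), in green for chromosome 3 and purple for chromosome 5, with open circles for the fit without WGP replicate 2. Gbp3, Gbp7 and Gbp9 sit at a log2 fold change of 2.22 to 2.52, and Gbp2 lies apart from them at 4.93 despite a like PBS level.

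Levels of different genes were compared per kilobase of annotated exon. In PBS the order was Gbp2 (25.85 CPM per kb), Gbp3 (19.76), Gbp7 (14.96) and Gbp9 (11.54), whose library ranges did not overlap. Then came Gbp2b (3.12), Gbp5 (2.44), Gbp4 (2.03), Gbp8 (1.61) and Gbp6 (0.673). The ranges of Gbp2b, Gbp5, Gbp4 and Gbp8 overlapped from neighbour to neighbour, although Gbp5 was above Gbp4 and Gbp4 above Gbp8 within each of the 3 libraries. The order depended on the length used. At the top, Gbp3 and Gbp7 overlapped when counted per unmatched window and Gbp2 and Gbp3 when counted per longest transcript. In WGP Gbp2 led with 790.1 CPM per kb (SD 402.1), clear of Gbp3 at 113.5 (SD 45.15). Gbp3, Gbp5 (101.3), Gbp7 (77.95), Gbp4 (54.89), Gbp2b (53.85) and Gbp9 (53.85) formed a run of overlapping ranges. Gbp8 (40.26) came next, under the range of Gbp9 and overlapping those of Gbp4 and Gbp2b, and Gbp6 (9.66) and Gbp10 (0.952) followed without overlap. Scaled by the number of unmatched windows in place of exon length, Gbp6 came to 28.53 in WGP and its range then overlapped that of Gbp8. In PBS it came to 1.99 on that scale, above Gbp8 (1.74), and these ranges overlapped too. Per longest transcript, Gbp5 (178.9) stood above Gbp3 (138.2) in WGP, and in PBS Gbp5 (4.32) and Gbp4 (3.36) came before Gbp2b (3.12), with overlapping ranges. Among all 14429 genes tested, Gbp2 moved from rank 1753 to rank 32 by level per kilobase.

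The summed level of the family per kilobase was 81.99 ± 3.45 in PBS and 1296 ± 577.5 in WGP (SD, n = 3). Gbp2 made up 32.8%, 31.8% and 29.9% of it in PBS and 57.0%, 63.9% and 58.8% in WGP. Its share was thus higher in every WGP library, by far more than the spread within a group. The share of Gbp3 was 24.1% ± 0.419 in PBS and 8.88% ± 0.429 in WGP, although its own level was higher in WGP. Gbp7 had 18.3% ± 4.06 in PBS and 6.13% ± 0.481 in WGP, and Gbp9 had 14.1% ± 0.723 and 4.39% ± 0.835. Gbp5 moved the other way, with 2.95% ± 1.24 in PBS and 7.87% ± 0.517 in WGP, as did Gbp4, with 2.47% ± 0.727 and 4.25% ± 0.107. The shares of Gbp8 (1.95% ± 0.369 and 3.42% ± 1.08), of Gbp2b (3.82% ± 1.34 and 4.36% ± 0.919) and of Gbp6 (0.824% ± 0.281 and 0.754% ± 0.0428) overlapped between the groups.

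**Figure D4:**
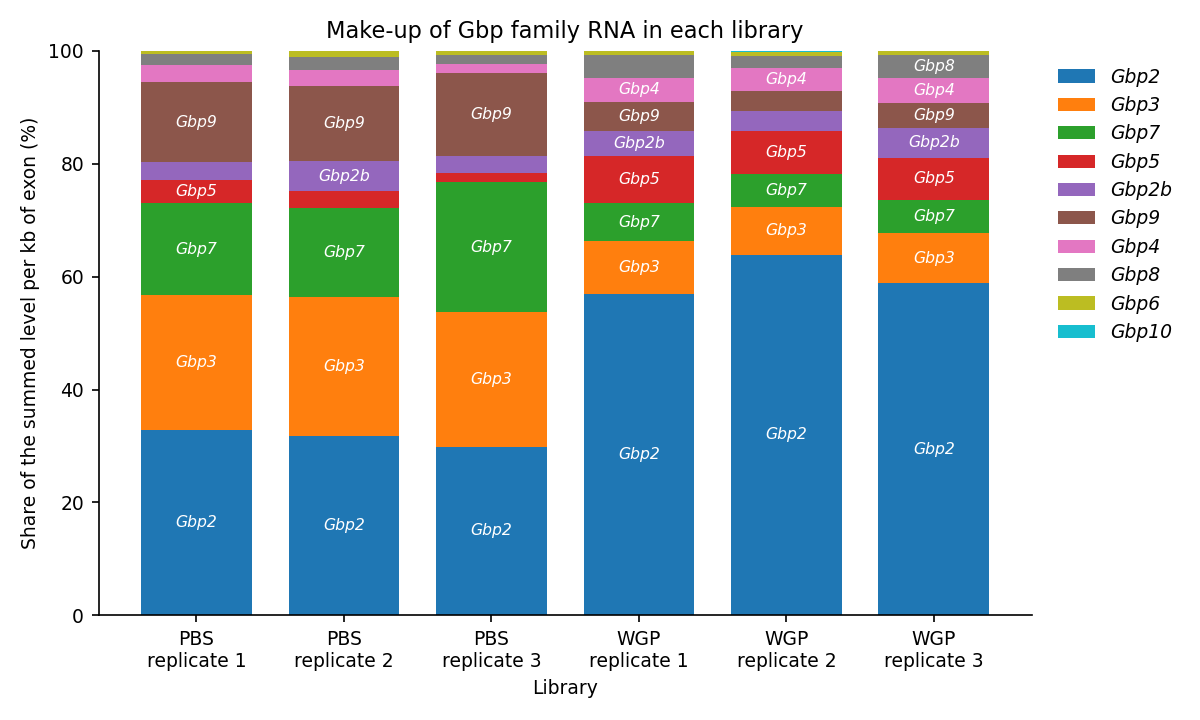
Share of each member in the summed level of the Gbp family per kilobase of exon, stacked to 100% for each of the 6 libraries. Gbp2 takes 29.9% to 32.8% in PBS and 57.0% to 63.9% in WGP, while the bands of Gbp3, Gbp7 and Gbp9 are narrower in all 3 WGP libraries.

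By cluster, the 5 chromosome 3 members summed to 247.6, 228.6 and 239.5 CPM in PBS and to 2397, 5496 and 2968 CPM in WGP. The means differed 15.2-fold, a log2 ratio of 3.92, or 3.49 without WGP replicate 2. The 5 chromosome 5 members summed to 91.15, 84.37 and 77.87 CPM in PBS and to 660.3, 1204 and 805.2 CPM in WGP. Here the means differed 10.5-fold, a log2 ratio of 3.40, or 3.12 without WGP replicate 2. The median log2 fold change of single members was nearly the same, at 4.11 over the 5 on chromosome 3 and 4.25 over the 4 with PBS counts on chromosome 5. The chromosome 5 share of the family per kilobase was 19.8%, 19.5% and 18.6% in PBS and 14.2%, 10.7% and 13.7% in WGP, so these ranges did not overlap. Together the 10 genes took 0.0317% to 0.0369% of all counts in PBS and 0.295% to 0.641% in WGP.

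WGP replicate 2 differed from its group by different factors for different members. Its level was 2.22 times the mean of the other WGP libraries for Gbp2, 1.98 for Gbp5, 1.95 for Gbp4, 1.93 for Gbp6, 1.88 for Gbp3 and 1.84 for Gbp7. The factor was smaller for Gbp9 (1.48), Gbp2b (1.42) and Gbp8 (1.08), and largest for the sparse Gbp10 (6.93). WGP replicate 1 was the lowest WGP library for all 10 members. Among the T cell markers Cd3e was 8.27 CPM in WGP replicate 2 against 1.33 and 1.78 CPM in replicates 1 and 3. Cd3d was 3.86 CPM against 1.275 and 2.83 CPM. Cd4 was 15.41 CPM against 5.43 and 13.59 CPM, and it lay higher in PBS, at 18.44 to 28.74 CPM. The summed T cell markers ranged from 11.05 to 41.82 CPM in WGP and from 19.54 to 31.86 CPM in PBS. Their part in the Gbp values was not tested.

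The genes next to the clusters were read from the same fit. Of 21 such genes, 5 on each side of each cluster and Gm43302 inside, 18 were tested and 4, or 22.2%, passed as higher in WGP, against 4.53% of all genes tested. None passed as lower (0 lower also at an unadjusted p under 0.05, by DESeq2 and by limma-voom). Their median log2 fold change was 0.158. On one side of the chromosome 3 cluster the nearest gene, Pdlim5 at 98.3 kb, had a log2 fold change of 0.11 (adjusted p = 0.785). On the other side the nearest gene was Kyat3 at 63.0 kb, with 0, 1.67 and 3.27 CPM in PBS and 4.21, 4.34 and 3.49 CPM in WGP. Kyat3 did not pass either (adjusted p = 0.607), although its groups did not overlap. Nearest to the chromosome 5 cluster, the transporter gene Abcg3 had a log2 fold change of 0.20 (adjusted p = 0.607). On the other side Lrrc8b, a subunit of volume-regulated anion channels, rose by 1.11 on the log2 scale (adjusted p = 0.02), and it lost the call in 6 of 16 alternative analyses, among them those without WGP replicate 2. Its relative Lrrc8c rose by 1.20 (adjusted p = 0.00137). Further away, Spp1 (osteopontin) rose by 2.55 (adjusted p = 2.34e-05) and Lmo4 by 1.66 (adjusted p = 0.000116). They lie 573.1 and 1550.5 kb from the clusters.

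**Figure D5:**
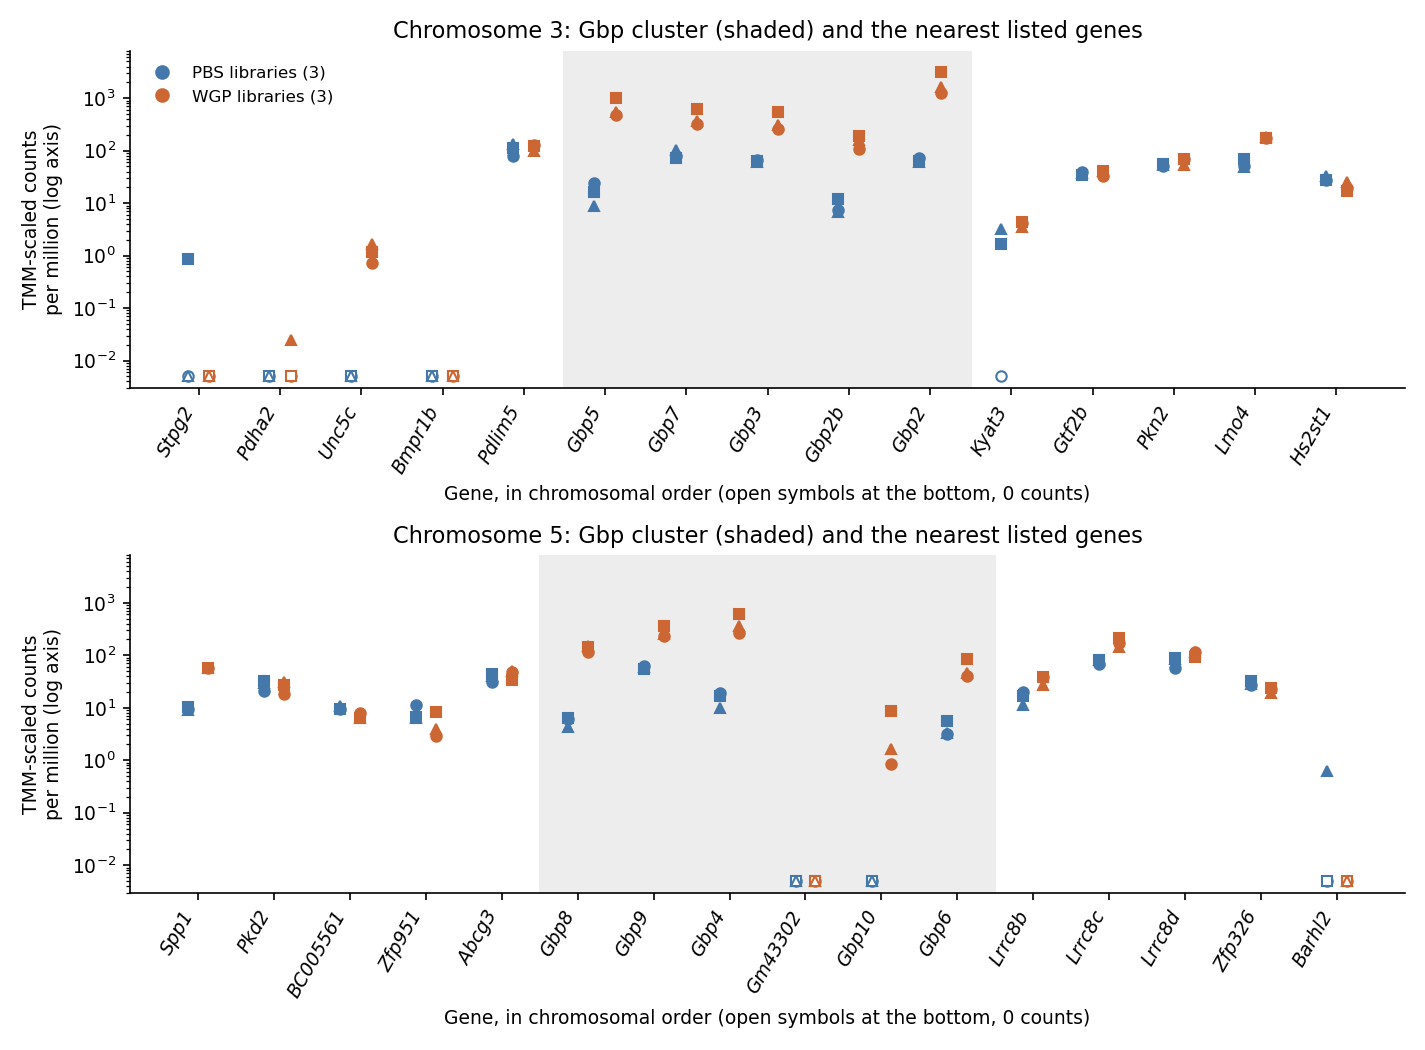
TMM-scaled CPM (log axis) of the Gbp members (shaded) and of the 5 nearest listed protein-coding genes on each side, in chromosomal order, in the 3 PBS (blue) and 3 WGP libraries (orange), with open symbols at the bottom for 0 counts. Within the shading the groups are separated for every Gbp member, and of the nearest flanking genes Pdlim5, Kyat3 and Abcg3 did not pass the test (log2 fold changes of 0.11, 1.28 and 0.20) while Lrrc8b passed (1.11). The groups of Kyat3 do not overlap either.

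The wider interferon pathway was read from lists that were chosen with earlier results of these data known. Of 18 genes of interferon-γ signalling and its factors 10 passed as higher and 0 as lower in WGP (0 lower also at an unadjusted p under 0.05, by DESeq2 and by limma-voom), against 4.53% of all genes tested as higher. Their median log2 fold change was 1.39. The ligand gene Ifng itself was at 12.33, 5.57 and 0 CPM in PBS and 1.00, 3.28 and 5.42 CPM in WGP, and these groups overlapped (adjusted p = 0.753). Of its receptor chains Ifngr2 rose by 1.51 (adjusted p = 5.44e-05), while Ifngr1 had a log2 fold change of 0.55 that did not pass (adjusted p = 0.126).

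The receptor kinase gene Jak2 rose by 1.5 (adjusted p = 0.000279), while Jak1 had a log2 fold change of 0.03 (adjusted p = 0.924). Irf1, an ISRE-binding factor, rose by 2.30 (adjusted p = 0.000153), Irf7 by 1.96 (adjusted p = 2.74e-05) and the transcription factor gene Batf2 by 3.58 (adjusted p = 4.65e-05). Nlrc5, which drives MHC class I genes, rose by 2.20 (adjusted p = 2.4e-05). Stat2, the class II activator gene Ciita and the inhibitor gene Socs1 were also called higher. Socs1 lost the call in the fit with the Y-linked covariate, which left PBS replicate 1 as the single control.

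Of 7 genes for type I interferon ligands and their receptor 3 interferon-α genes were at 0 in all libraries. Ifnb1, the interferon-β gene, was at 9.78, 11.81 and 12.58 CPM in PBS and at 0 in all 3 WGP libraries (adjusted p = 0.000153, lower). The receptor genes Ifnar1 and Ifnar2 had log2 fold changes of 0.60 (adjusted p = 0.0191) and 0.85 (adjusted p = 0.00422), both under the fold threshold, and the kinase gene Tyk2 one of 0.52 (adjusted p = 0.0682). No gene of this list was called higher, with 3 at an unadjusted p under 0.05 and 0 by DESeq2 or limma-voom. With the covariate for Y-linked counts, which left PBS replicate 1 as the single control, the log2 fold change of Ifnar2 was 1.04.

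A list of immunity-related GTPases, the sister family, had 7 of 12 tested genes called higher, against 4.53% of all genes, and 0 lower (0 lower also at an unadjusted p under 0.05, by DESeq2 and by limma-voom), with a median log2 fold change of 3.17. The list leaves out Ifi47, another member of that family, which stood at 29.34, 31.5 and 31.13 CPM in PBS and 222.4, 435.9 and 254.1 CPM in WGP. Irgm1, a regulator of the family, was at 48.41, 46.31 and 39.05 CPM in PBS and 277.8, 624.0 and 351.9 CPM in WGP, a log2 fold change of 3.23 (adjusted p = 5.91e-05). The related regulator Igtp rose by 3.58 (adjusted p = 5.91e-05). The effectors Iigp1 and Tgtp1, which load onto pathogen vacuoles, were called higher as well, Iigp1 by 4.43 (adjusted p = 0.000272; 3.69 without WGP replicate 2), and Tgtp1 from a single count in all of PBS to 27.6, 47.77 and 33.91 CPM in WGP (adjusted p = 5.24e-06). Tgtp1 has a near-identical copy, Tgtp2, so the split of reads between them is uncertain. WGP replicate 2 was the highest library for all 4 of these genes.

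Other large GTPases of the dynamin superfamily had 1 of 16 tested genes called higher and 3 lower, against 4.53% and 4.96% of all genes, with a median log2 fold change of 0.048. Gvin1, a very large interferon-inducible GTPase gene, rose by 1.97 (adjusted p = 0.0115). This call was lost in the model with the Y-linked covariate, where PBS replicate 1 was the single control. Dnm1, a dynamin best known from synapses, fell by 3.31 on the log2 scale (adjusted p = 7.67e-05), and Ehd4 of endosomal recycling fell by 1.36 (adjusted p = 0.00121), with the call lost in the same model. Dnm3 was at 5.31, 1.41 and 0.171 CPM in PBS and at 0 in all WGP libraries (adjusted p = 0.0469, lower), a call lost in 7 of 15 alternatives, among them the fit without WGP replicate 2.

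Genes that bring Gbp proteins to vacuoles, the ubiquitin-like conjugation system and ubiquitin ligases, had 1 of 14 called higher and 1 lower. In either direction that is 14.3%, against 9.49% of all genes. Rnf213, a giant ubiquitin ligase, rose by 1.53 (adjusted p = 0.000158). Gabarapl1, a homologue of the autophagy protein LC3, fell by 1.02 (adjusted p = 0.00667), a call lost in 5 of 16 alternatives. Atg5 of the conjugation machinery had a log2 fold change of 0.79 (adjusted p = 0.0163), under the fold threshold, and the ligase gene Trim21 one of 0.94 (adjusted p = 0.0507).

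Among 13 inflammasome and pyroptosis genes 5 were called higher, or 38.5% against 4.53% of all genes, and 0 lower (0 lower also at an unadjusted p under 0.05, by DESeq2 and by limma-voom). These were Mefv (pyrin) with 3.08 on the log2 scale (adjusted p = 1.86e-05), Il1b with 2.99 (adjusted p = 2.2e-05), the nucleic acid sensor gene Zbp1 with 2.98 (adjusted p = 1.86e-05), the pore-forming Gsdmd with 1.41 (adjusted p = 0.000131) and the adaptor gene Pycard with 1.10 (adjusted p = 0.00336). Pycard lost the call without WGP replicate 2 and without PBS replicate 1. Nlrp3 and Aim2, the sensors named above with Gbp5 and Gbp2, had log2 fold changes of 0.45 (adjusted p = 0.172) and -0.12 (adjusted p = 0.742).

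Some Gbp proteins are anchored to membranes by prenylation of a CaaX motif. None of 6 genes for this modification was called by edgeR, by DESeq2 or by limma-voom, and 0 had an unadjusted p under 0.05. Their log2 fold changes included 0.31 for Icmt (adjusted p = 0.343), -0.37 for Fnta (adjusted p = 0.361), -0.24 for Zmpste24 (adjusted p = 0.412) and 0.20 for Rce1 (adjusted p = 0.699).

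The genes whose pattern was most like the family were named by Pearson's r of log2(CPM + 1) with the mean centred profile of the 10 members, over the 6 libraries and 11681 genes with a mean of at least 1 CPM. These r values are a description, since the 6 points form 2 groups that any gene higher in WGP also follows. The 10 genes, with r from 0.9976 to 0.9991, were Irgm1, Herc6, Acsl1, B2m, Tapbp, Ifi47, Vopp1, Psme2, Prdx5 and Mmp19. With a pseudocount of 0.1 in place of 1, 8 of the 10 were again among the top 10. By Spearman's rho 50 genes outside the family tied at 1. Irgm1 and Ifi47 are immunity-related GTPases, and B2m, Tapbp and Psme2 belong to MHC class I presentation. Prdx5, a peroxiredoxin, was at 181.4, 172.6 and 158.5 CPM in PBS and 991.0, 1423 and 1077 CPM in WGP, with the libraries of each group in the same order as those of Gbp2.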

How the data were processed

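CD45+CD11b+ pancreatic cells from 3 PBS and 3 WGP samples were profiled by poly-A RNA-Seq with 75-base single reads. Per the submitters' processing notes, reads were aligned to GRCm38.p6 (mm10) with STAR 2.6 and counted with HTSeq 0.10.0. The authors deposited raw counts per Ensembl gene, without normalization. The annotation release, the strand setting and the handling of multiply matching and duplicate reads are not given in the sources used here. Protein-coding genes (GENCODE vM21) whose RLE-scaled counts added up to 10 or more across all libraries, 14429 in number, were tested with edgeR 4.0.16 in R 4.3.3 (TMM, quasi-likelihood F test, Benjamini-Hochberg adjustment), which was tested on simulated data. SEs were derived from the log2 fold change and the F statistic. Adjusted p-values weigh the difference between the groups against the spread between libraries within a group, for these 6 libraries alone. Alternatives used DESeq2 1.42.0, limma-voom (limma 3.58.1), other scalings, filters and thresholds, a replicate block and each library left out. A covariate for Y-linked counts was added after the data were seen. The members and the gene lists were chosen with earlier results of these data known. Named were all members, up to 4 genes with the smallest p per list, called and nearest neighbours, 5 preset markers (Ptprc, Itgam, Adgre1, Ncr1 and Ms4a1) and the 10 genes most like the family. Ifng, Ifngr1, Ifngr2, Jak1, Jak2, Irf1, Stat2, Ciita, Socs1, Pycard, Nlrp3, Aim2, C1qa, Gzma, Cd209a, Cd8a, Kdr, Csf3r, Retnlg, S100a8, S100a9, Mmp8, Prf1, Pecam1, Pdgfra, Dcn, Col1a1, Cd3e, Cd3d and Cd4 were named after their values were seen. Same-numbered PBS and WGP libraries did not deviate together (r = 0.049, -0.08 and 0.07). The values of 1 listed gene are not reported here.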

Additional observations from a re-analysis of the deposited data

How the results depend on the processing

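The 9 Gbp members with counts in PBS kept their direction in all 16 alternatives, and each of these 144 log2 fold changes moved by less than the spread between replicates. The number of members meeting the call rule stayed at 10, except for 9 with the replicate block and without WGP replicate 2, where Gbp10 was lost. Gbp10 was lost with the covariate for Y-linked counts as well, a fit from which no count is given. With the replicate block 1341 genes were called in place of 1369, although the replicate numbers do not pair the libraries. Leaving out 1 library at a time gave 1146 to 1396 called genes, log2 ratios of 3.49 to 4.15 for the chromosome 3 sum and 3.12 to 3.57 for the chromosome 5 sum, and 27 to 29 called genes over the 7 pathway lists. An adjusted p alone, with no fold threshold, called 2071 genes, and a log2 fold change of at least 2 called 568. The covariate for Y-linked counts marked PBS replicates 2 and 3 and left PBS replicate 1 as the single control. That fit cannot separate sex from other traits of this library, so no count of called genes is read from it. Of the pathway lists Socs1, Gvin1, Ehd4 and Gabarapl1 lost their calls in it. The log2 bound of Gbp10 went from 7.18 to 1.81 with the higher floor. The Gbp2 share per longest transcript was 28.7% in PBS and 53.8% in WGP. Every member but Gbp10 had at least 121 counts in each library.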
